A study of Homo sapiens with 27 samples.

Results

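GDF15 and 9 genes of the integrated stress response were followed through a drug adaptation time course of the *GNAQ* mutant uveal melanoma cell line 92.1. The members were the rows of the count table that carry the symbols *GDF15*, *ATF4*, *DDIT3*, *TRIB3*, *ASNS*, *CHAC1*, *PSAT1*, *PHGDH*, *SESN2* and *DDIT4*, that is 10 of the 61533 genes listed, and all 10 were found. Cells were kept in DMSO, the solvent, or in 100 nM of VS-4718, a small-molecule inhibitor of focal adhesion kinase (FAK) that is called FAKi here, with medium and treatment renewed every 72 h. The 27 mRNA libraries form 9 groups of 3: the starting cells in DMSO (day 0), then DMSO or FAKi cultures at days 3, 7, 14 and 21. Every group is the same line, and the *GNAQ* mutation is carried by treated and control cells alike. The labels give a replicate number without saying whether it counts plates of a single experiment or repeats of the complete experiment, so the p-values measure the spread between these libraries, which may be technical.

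The integrated stress response starts when the kinases GCN2, PERK, HRI or PKR phosphorylate the translation initiation factor eIF2 on its alpha subunit. General translation then slows, while the mRNA of the transcription factor ATF4 is translated more, and ATF4 with its partners switches on genes for amino acid synthesis and uptake, tRNA charging and cell fate. GDF15 is a secreted cytokine of the TGF-beta superfamily that many stressed cells release, and its receptor GFRAL with the co-receptor RET acts in the hindbrain on appetite. In melanoma cells the response is known from amino acid shortage and from kinase inhibitor treatment. Because ATF4 is controlled mostly through translation, its mRNA level is not a measure of ATF4 protein.

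Levels are given as CPM, counts scaled to the size of the library, with TMM factors from all 27 libraries, and per kilobase of the counted transcript where genes are compared with each other. Total counts per library ranged from 12161994 to 43651551 with a median of 24759579, and mitochondrial genes took 5.49% to 26.97% of the counts. Melanocytic marker genes were abundant (*PMEL* at 2613 to 8111 CPM, *TYRP1* at 3392 to 7059 CPM), although *S100B*, another marker of the lineage, was at 0.294 to 2.10 CPM. Of other cell types, the fibroblast genes *COL1A1* and *LUM* were at 3.13 to 9.90 and 1.43 to 8.66 CPM, *CDH1*, an epithelial gene, did not exceed 2.05 CPM and the endothelial gene *PECAM1* did not exceed 0.885 CPM. *PTK2*, which encodes FAK, differed between FAKi and DMSO by a mean log2 fold change of 0.04 (SE 0.0688, edgeR adjusted p = 0.786), and *GNAQ* by -0.12 (SE 0.0848, adjusted p = 0.384). Since these are bulk libraries, fewer cells of a kind and less RNA of a gene per cell cannot be told apart.

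Libraries that stood apart from their group come before the results. The library labelled FAKi day 7 replicate 1 differed from the other libraries of its group by a root mean square log2 difference of 0.708 and 0.741 over 16982 genes, but from FAKi day 14 replicate 1 by only 0.215. The smallest such difference between any replicates of the same group was 0.229 and the median was 0.397. In a chi-square test of the counts, its statistic per gene against FAKi day 14 replicate 1 was 1.66, while the lowest between replicates of a group was 3.30. The label was kept, and each comparison within day 7 is given with and without this library. Fits over several days hold it unless stated. Where it is left out, the comparison has 2 FAKi libraries and 3 DMSO libraries. DMSO day 3 replicate 1 differed from its group by 0.577 and 0.806, and DMSO day 21 replicate 3 by 0.721 and 0.768, and the calls of those days are also given without them.

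ATF4 and its relatives bind a short element, the C/EBP-ATF response element (CARE), here searched as TGATGNAA on both strands of the 300 bases from 250 before to 50 after each gene's start in RefSeq (GRCh38.p14). All 10 members matched a promoter by symbol, and 2 of them, *ASNS* and *CHAC1*, held the element in this window, against 4.46% of all 27305 genes with a promoter. For *TRIB3* the RefSeq starts searched differ from the start of the counted transcript. Among list genes with a promoter entry, the element was also found in 7 of 11 genes of the tRNA synthetases and tRNA export list. It was found in 5 of 9 amino acid transporters and in 3 of 7 partner and downstream transcription factors. Of the enzymes of amino acid synthesis and one-carbon metabolism, 2 of 6 held it. So did 1 of 14 genes for kinases and eIF2, 1 of 12 other outputs and 1 of 14 XBP1 and ATF6 genes. None of 10 p53 target genes or 8 hypoxia genes held it. *SLC7A11* and *NUPR1*, for example, were not searched. The stretches below are those of members and pathway genes that were both called lower in FAKi at day 14 and held the element. Each is 30 bases read 5′ to 3′ on the strand that carries the element, with the element in capitals.
ASNS: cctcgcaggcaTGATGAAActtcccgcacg
CHAC1: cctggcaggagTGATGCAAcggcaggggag
CEBPG: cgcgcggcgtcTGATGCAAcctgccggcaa
JDP2: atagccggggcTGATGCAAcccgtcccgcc
ATF3: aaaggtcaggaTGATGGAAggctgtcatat
AARS1: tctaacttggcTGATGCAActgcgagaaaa
CARS1: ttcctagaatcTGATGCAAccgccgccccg
GARS1: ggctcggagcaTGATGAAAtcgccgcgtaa
MARS1: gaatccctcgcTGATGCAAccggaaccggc
The *ASNS* stretch lies at chr7:97872458-97872487, with the element starting at -68 from the start of the gene and on the gene's own strand (minus). The *CHAC1* stretch lies at chr15:40953251-40953280, with the element at -209 and on the strand opposite to the gene. No match in the other 8 members says only that these letters are absent from this window.

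The members differed widely in abundance. Per kilobase, *ATF4* was the most abundant with a mean of 525 CPM per kb over the 27 libraries, above 99.5% of the genes with counts. It was followed by *PSAT1* (153 CPM per kb), *ASNS* (130), *DDIT3* (91.9), *CHAC1* (69.8), *TRIB3* (68.02) and *DDIT4* (53.9). *GDF15* at 11.9 CPM per kb and *SESN2* at 10.7 CPM per kb were lower, and *PHGDH* at 0.185 CPM per kb was near the detection limit. *PHGDH*, the first enzyme of serine synthesis, was counted on a transcript of 1171 bases that covers 32.0% of the exon bases of the gene's canonical transcript in GENCODE 44, and it had 0 to 19 counts per library, so its values describe that transcript only. For *ASNS*, 82% of the exon bases lie within exons of the long noncoding gene *ENSG00000284707* on the same strand, and reads from both cannot be separated here. For *DDIT3*, 33.2% of the exon bases lie within exons on the opposite strand, those of *MARS1*, and the strand setting of the counting is not given in the sources used here. *MARS1* was itself called lower in FAKi at day 14 (log2 fold change -1.07), and its part in the *DDIT3* values was not tested. A further overlap, 9.84% of the *DDIT3* exon bases, is with *ENSG00000285133* on the same strand.

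*GDF15*, the stress cytokine, was at a lower level in every FAKi library than in every DMSO library of the same day, on each of the 4 days. In DMSO it stood at 19.3, 17.9 and 21.9 CPM at day 0, and at 31.4, 20.3 and 24.9 CPM at day 3. The FAKi libraries of day 3 held 13.1, 13.3 and 11.8 CPM, so that none reached the lowest DMSO library of that day. At day 7 *GDF15* was at 17.4, 17.8 and 21.3 CPM in DMSO and at 0.645, 8.07 and 4.90 CPM in FAKi. All 3 FAKi libraries were again below all 3 DMSO libraries, and the lowest was the library labelled replicate 1. At day 14 the gene was at 2.71, 2.38 and 1.40 CPM in DMSO and at 1.17, 0.313 and 0.314 CPM in FAKi, which is 43 to 86 counts against 8 to 39 counts. Every library of day 14 was below all libraries of the same treatment from other days, except the library labelled FAKi day 7 replicate 1, and the highest FAKi library was close to the lowest DMSO library. At day 21 it stood at 32.8, 39.7 and 29.1 CPM in DMSO and at 9.90, 11.1 and 10.0 CPM in FAKi, without overlap. Ordered by mean level, *GDF15* ran from DMSO day 21 (33.9 CPM ± 5.37, SD, n = 3) over DMSO day 3, day 0 and day 7, then FAKi day 3, FAKi day 21 and FAKi day 7, to DMSO day 14 and last FAKi day 14 (0.600 CPM ± 0.496, SD, n = 3). Neighbours among the first 4 groups overlapped, as did FAKi day 7 and DMSO day 14, and the other neighbours did not.

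**Figure D1:**
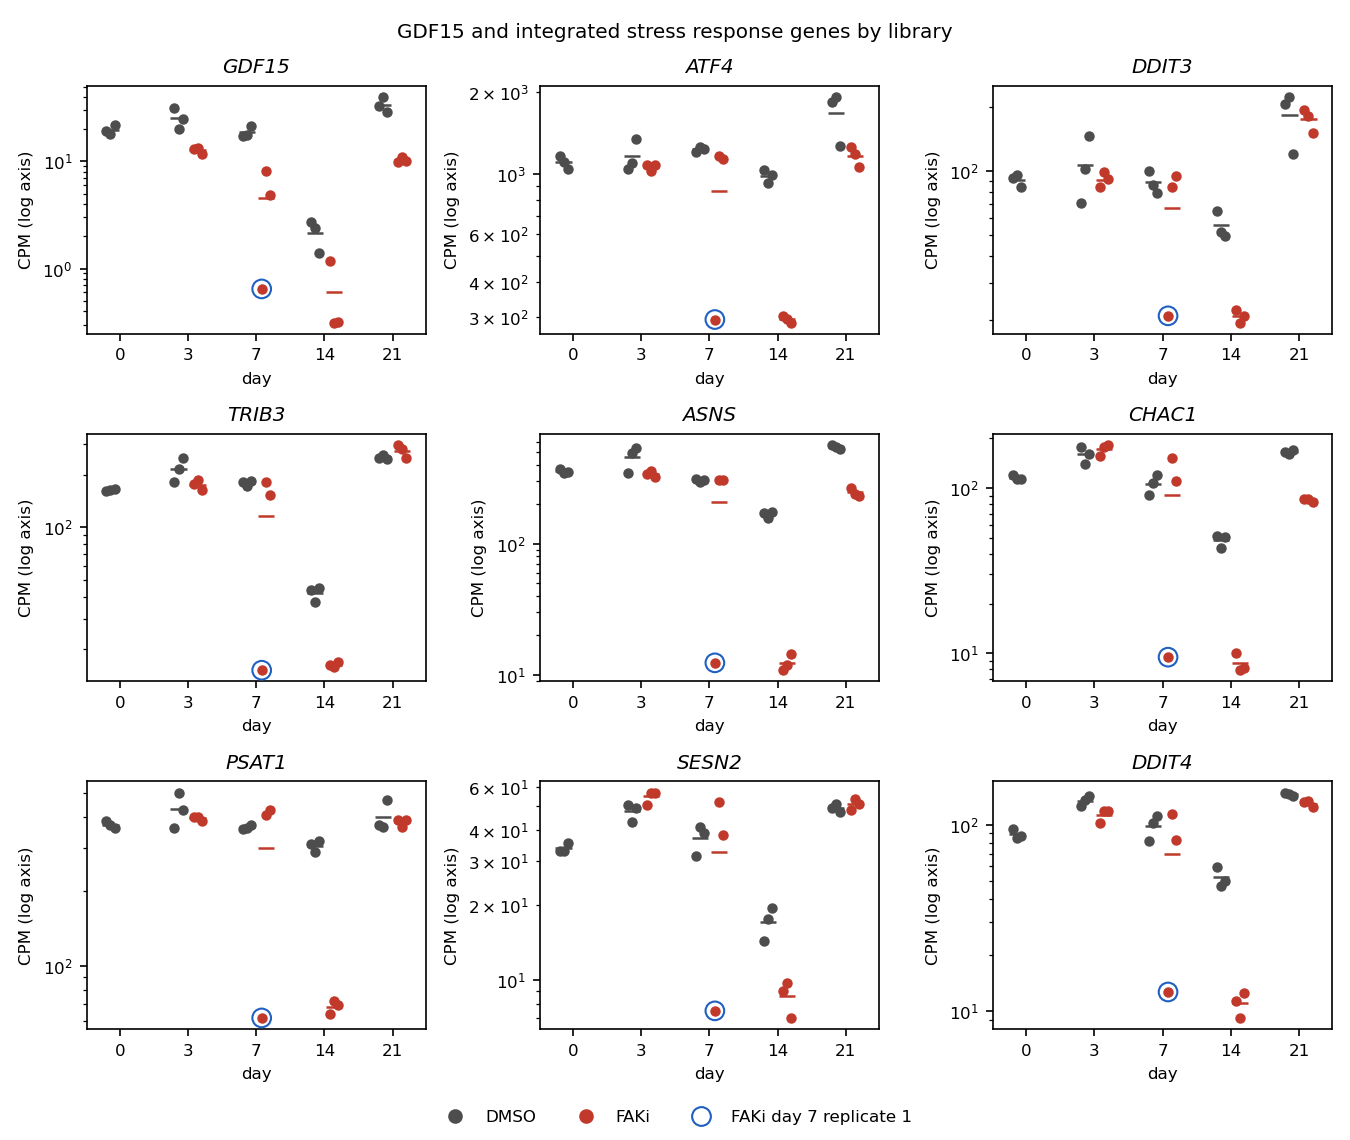
Levels of 9 members in each of the 27 libraries, in CPM on a log axis against the day. Points are libraries (grey DMSO, red FAKi), short lines are group means of 3, and the ring marks the library labelled FAKi day 7 replicate 1. For *ASNS* the FAKi day 14 libraries sit between 10.8 and 14.3 CPM and the ringed library at 12.3 CPM, below every DMSO library. *PHGDH*, at 0 to 1.08 CPM, is not drawn.

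The FAKi effect was tested within each day with edgeR's quasi-likelihood test and Benjamini-Hochberg adjustment over all genes tested, and calling a gene needed both an adjusted p no higher than 0.05 and a log2 fold change beyond 1 in either direction. For *GDF15* the log2 fold change was -0.99 at day 3 (SE 0.193, edgeR adjusted p = 0.0945), -2.05 at day 7 (SE 0.575, adjusted p = 0.350), -1.83 at day 14 (SE 0.552, adjusted p = 0.0331) and -1.66 at day 21 (SE 0.159, adjusted p = 0.00307). It was called at days 14 and 21. Without FAKi day 7 replicate 1 the log2 fold change at day 7 was -1.53 (SE 0.191, edgeR adjusted p = 0.000255), which was called. The mean effect over the 4 days was -1.63 (SE 0.221, edgeR adjusted p = 1.9e-05). With day 14 left out, a setting chosen after seeing the data, it was -1.58 (SE 0.236, adjusted p = 0.000274). That fit still held FAKi day 7 replicate 1. The call at day 14 was lost without DMSO replicate 1, DMSO replicate 2, FAKi replicate 2 or FAKi replicate 3 of that day, each time with a log2 fold change between -1.52 and -1.76 and an edgeR adjusted p between 0.0984 and 0.153. A difference of the *GDF15* effect between days was not called (edgeR adjusted p = 0.524).

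At day 3 none of the 10 members was called by edgeR, where 0% of the 22846 genes tested were called lower. At an unadjusted p under 0.05 there were 2 members, *GDF15* and *ASNS*, among 5442 genes, and DESeq2 called 755 genes but 0 members. In *GDF15*, *DDIT4* and *PHGDH* all FAKi libraries were below all DMSO libraries, that is 3 of 10 members, as were 15.3% of all genes tested. The median log2 fold change over the members was -0.22, against -0.02 over all genes. Without DMSO day 3 replicate 1, 2765 genes were called (12.7%) but again 0 members. At an unadjusted p under 0.05 there were 4 members in that setting. The share of all genes, 23.8% with all 6 libraries, was not counted for it. Without that library *GDF15* was at -0.80 (SE 0.168, edgeR adjusted p = 0.00297) and *ASNS* at -0.58 (SE 0.134, adjusted p = 0.00538), both short of the fold threshold. Mitochondrial genes took 18.1% of the counts in that library, 9.59% and 8.61% in the other DMSO libraries of day 3 and 16.8% to 18.7% in FAKi, and the part of this in the result was not tested.

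At day 7 none of the members was called by edgeR with all 6 libraries, and 0.0269% of all genes were called lower. A single member, *GDF15*, was under an unadjusted p of 0.05, as were 8.77% of all genes. DESeq2 called 0 members and 0.612% of all genes. All FAKi libraries were below all DMSO libraries for *GDF15* and *ATF4*, 2 of 10 members, as in 8.83% of all genes. The library labelled FAKi replicate 1 set the size of the other members' differences. *ASNS* was at 12.3 CPM there and at 307 and 309 CPM in replicates 2 and 3, against 297 to 312 CPM in DMSO. *CHAC1* was at 9.47 CPM there and at 152 and 110 CPM in the other FAKi libraries, against 91.2 to 120 CPM in DMSO. With all 6 libraries the log2 fold changes of *ASNS* and *ATF4* were -0.55 and -0.52. Without that library *GDF15* was the only member called, with 0.551% of all genes called lower. The log2 fold changes of the others then lay between -0.49 for *PHGDH* (SE 0.642) and 0.29 for *CHAC1* (SE 0.142), with *ASNS* at 0.01 (SE 0.101) and *ATF4* at -0.10 (SE 0.0979). In that setting *GDF15* and *ATF4* were lower in every FAKi library, 2 of 10 members, as were 16.2% of all genes. *PSAT1* was higher in every FAKi library, 1 of 10 members, as were 16.5% of all genes.

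Among the members day 14 gave the most calls. All 9 members that passed the minimum of 20 counts were called lower in FAKi, where 1.04% of the 23443 genes tested were called lower, and *PHGDH* was not tested. In each of the 9 all FAKi libraries were below all DMSO libraries, as they were in 14.1% of all genes. The median log2 fold change over the 9 was -1.83, against -0.01 over all genes. Mitochondrial genes took 21.95% to 26.97% of the counts in the DMSO libraries of that day and 20.7% to 22.1% in the FAKi libraries, and the part of this in the result was not tested.

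Among the enzymes, *ASNS*, which makes asparagine from aspartate and glutamine, was at 172, 158 and 175 CPM in DMSO and at 10.8, 11.9 and 14.3 CPM in FAKi at day 14. The groups lay far apart, and the log2 fold change of -3.78 (SE 0.124, edgeR adjusted p = 1.51e-14) had the smallest p of all genes tested that day. *PSAT1*, the second enzyme of serine synthesis, was at 311, 289 and 319 CPM in DMSO and at 63.8, 72.2 and 69.2 CPM in FAKi. Its log2 fold change was -2.17 (SE 0.101, edgeR adjusted p = 5.43e-12). *CHAC1*, which degrades glutathione, was at 51.4, 43.3 and 50.7 CPM in DMSO and at 10.1, 7.90 and 8.11 CPM in FAKi, with a log2 fold change of -2.48 (SE 0.138, edgeR adjusted p = 1.12e-10).

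Among the transcription factors and their regulator, *ATF4* was at 1030, 923 and 987 CPM in DMSO at day 14 and at 302, 294 and 285 CPM in FAKi. The log2 fold change was -1.74 (SE 0.0932, edgeR adjusted p = 6.26e-11). *DDIT3*, which encodes CHOP, a factor linked to cell death under lasting stress, was at 64.9, 52.1 and 49.9 CPM in DMSO and at 22.4, 19.5 and 20.9 CPM in FAKi. Its log2 fold change of -1.41 (SE 0.125, edgeR adjusted p = 1.24e-07) was close to that of *TRIB3*, a pseudokinase that restrains ATF4 and AKT, at -1.37 (SE 0.124, adjusted p = 1.65e-07). *TRIB3* was at 43.5, 37.3 and 45.2 CPM in DMSO and at 16.3, 15.8 and 16.8 CPM in FAKi.

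The members that act on mTORC1, the kinase complex that couples growth to nutrients, were lower too. *DDIT4*, which encodes the mTORC1 inhibitor REDD1, was at 59.6, 47.2 and 49.9 CPM in DMSO at day 14 and at 11.4, 9.22 and 12.6 CPM in FAKi, with a log2 fold change of -2.25 (SE 0.140, edgeR adjusted p = 6.99e-10). *SESN2*, a leucine-binding inhibitor of mTORC1, was at 14.3, 17.6 and 19.5 CPM in DMSO and at 8.99, 9.67 and 7.01 CPM in FAKi. Its log2 fold change of -1.0 (SE 0.172, edgeR adjusted p = 0.000462) lay just inside the fold threshold. Under other settings it lay just outside, at -0.88 without FAKi day 14 replicate 3, -0.898 without DMSO day 14 replicate 3 and -0.99 without DMSO day 14 replicate 2.

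**Figure D2:**
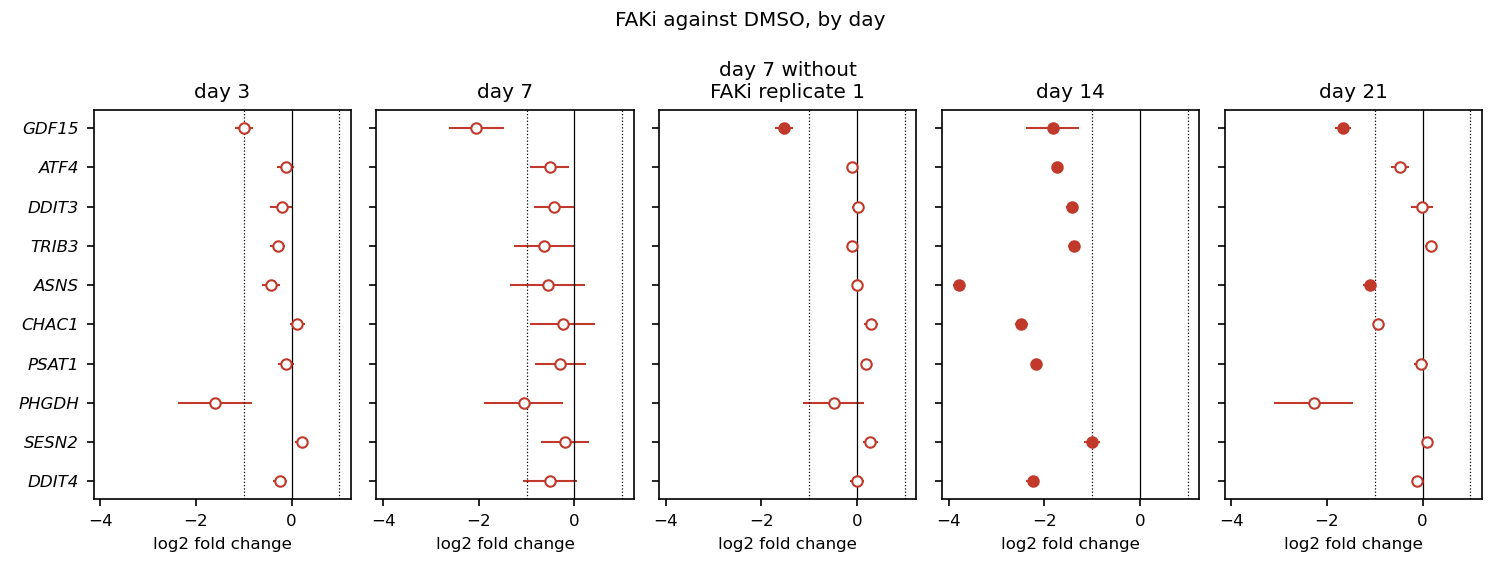
Log2 fold change of FAKi against DMSO for the 10 members (rows) at each day (panels), with bars for the standard error. Filled points passed the edgeR threshold of 0.05 on the adjusted p and lie outside the dotted lines at a log2 fold change of 1 in size. At day 14 all 9 tested members are filled, from -3.78 for *ASNS* to -1.0 for *SESN2*, and at day 21 *GDF15* and *ASNS* are.

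At day 21 only *GDF15* and *ASNS* were called lower, 2 of 10 members, with 2.71% of all genes called lower. *ASNS* was at 569, 552 and 529 CPM in DMSO and at 269, 241 and 230 CPM in FAKi, a log2 fold change of -1.11 (SE 0.132, edgeR adjusted p = 0.00478). The call was lost without FAKi day 21 replicate 2, where the log2 fold change was -1.09 with an edgeR adjusted p of 0.0581. *CHAC1* was at 166, 161 and 171 CPM in DMSO and at 85.6, 85.5 and 82.8 CPM in FAKi. The groups did not overlap, and its log2 fold change of -0.92 (SE 0.115, edgeR adjusted p = 0.00569) lay just outside the fold threshold, so that 3 members were lower by the adjusted p alone, where 6.32% of all genes were. *TRIB3* (0.18, SE 0.128), *SESN2* (0.10, SE 0.116), *DDIT3* (-0.01, SE 0.222), *PSAT1* (-0.03, SE 0.152) and *DDIT4* (-0.11, SE 0.114) differed little and were not called. In DMSO, *DDIT3* was at 207 and 221 CPM in replicates 1 and 2 but at 120 CPM in replicate 3. All FAKi libraries were below all DMSO libraries for 6 of 10 members, as for 17.1% of all genes.

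Without DMSO day 21 replicate 3, 4248 genes were called (18.7%) and 3 members, with *PHGDH* at -2.39 (SE 0.857, edgeR adjusted p = 0.0267). *ATF4* was then at -0.62 (SE 0.11, adjusted p = 0.000109) and *DDIT3* at -0.23 (SE 0.11, adjusted p = 0.0931).

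The replicate numbers of day 21 went together across genes, so a fit with the number as a block was also made for that day. With the block, 3 of 10 members were called lower, with 3.41% of all genes called lower, since *PHGDH* joined at -2.21 (SE 0.746, edgeR adjusted p = 0.0446) from -2.28 without it (SE 0.819, adjusted p = 0.0971). *ATF4* was at 1833, 1906 and 1269 CPM in DMSO and at 1250, 1181 and 1062 CPM in FAKi at day 21. Its log2 fold change of -0.47 (SE 0.187, edgeR adjusted p = 0.126) became -0.45 with the block (SE 0.145, adjusted p = 0.0371). Mitochondrial genes took 5.49% to 9.75% of the counts in the DMSO libraries of that day and 10.7% to 11.2% in the FAKi libraries, and the part of this in the result was not tested.

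Over the 4 days together, the mean FAKi effect was called for *GDF15* and for *ASNS* (log2 fold change -1.47, SE 0.250, edgeR adjusted p = 0.000312), 2 of 10 members, where 1.01% of the 27897 genes tested were called lower. By the adjusted p alone 7 members were lower, where 8.70% of all genes were, the other five being *ATF4* (-0.72), *CHAC1* (-0.89), *DDIT4* (-0.78), *PSAT1* (-0.65) and *DDIT3* (-0.51). Without day 14 the mean for *ASNS* was -0.71 (SE 0.322, edgeR adjusted p = 0.130) and was not called, while *PHGDH* at -1.66 (SE 0.497, adjusted p = 0.0266) was. The effect differed between days for *ASNS* (edgeR adjusted p = 0.00941), *PSAT1* (0.0123), *DDIT4* (0.0219), *CHAC1* (0.0260) and *ATF4* (0.0290), that is 5 of 10 members, where 10.3% of all genes passed. Without FAKi day 7 replicate 1 there were 8 such members, where 16.1% of all genes passed. Without day 14 there were 0, also at an unadjusted p under 0.05, where 1.74% of all genes passed. DESeq2 on all 4 days called 5, where 23.8% of all genes passed.

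Levels also differed between days within each treatment. In DMSO the levels differed between days for 8 of 10 members (edgeR adjusted p of at most 0.00528), the exceptions being *PSAT1* (adjusted p = 0.0650) and *PHGDH* (adjusted p = 0.176), while 49.9% of all genes passed this test. In 9 of 10 members all DMSO libraries of day 14 were below all 12 other DMSO libraries, as in 9.33% of all genes. *TRIB3* was at 162 to 258 CPM in the other DMSO libraries and at 37.3 to 45.2 CPM at day 14. In FAKi the levels differed between days for 9 of 10 members (edgeR adjusted p of at most 0.000537), against 45.1% of all genes. With FAKi day 7 replicate 1 left aside, all FAKi libraries of day 14 were below all other FAKi libraries for 9 of 10 members, as in 6.84% of all genes. *PHGDH* was the exception in both arms.

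From day 14 to day 21 the mean levels rose again in both arms. In FAKi the day 21 means of *CHAC1* (84.65 CPM), *ASNS* (246.5) and *GDF15* (10.33) were below those of day 3 (171.7, 339.8 and 12.75 CPM). The FAKi day 21 means of *PSAT1* and *SESN2* were also below day 3. Those of *ATF4*, *DDIT3*, *TRIB3*, *DDIT4* and *PHGDH* were above it. All members but *PSAT1* had their highest DMSO mean at day 21. Those of *TRIB3*, *DDIT3*, *ASNS* and *GDF15* were 252, 183, 550 and 33.9 CPM. Across the 27 libraries the levels ran over a 127-fold range for *GDF15*, 52.7-fold for *ASNS*, 23.1-fold for *CHAC1* and 6.68-fold for *ATF4*. On the log2 scale the SD of *GDF15* was 1.98, above 99.9% of the 16982 genes with a mean of at least 1 CPM, whose median SD was 0.43.

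Described over the 27 libraries, which share the low day 14 cultures, *ASNS* went with *PSAT1* (Pearson r = 0.980), *CHAC1* (0.975), *ATF4* (0.971) and *DDIT4* (0.971), and *TRIB3* with *SESN2* (0.969). *GDF15* went with *TRIB3* at 0.929, *CHAC1* at 0.925 and *ATF4* at 0.873. Among all genes with a mean of at least 1 CPM, those most like *GDF15* were *SLC1A5*, a glutamine transporter (r = 0.973), *CARMIL2* (0.958), *RGS16* (0.956), *KCNG1* (0.951) and *VGF* (0.947). Those most like *ASNS* were *ENSG00000284707* (r = 1.00), which shares its exon bases, then *CEBPG* (0.989), *YARS1* (0.985), *PSAT1* (0.980) and *AARS1* (0.976). By ranks (Spearman rho) these 5 were at 0.998, 0.891, 0.860, 0.680 and 0.679, and the 5 most like *GDF15* at 0.909 to 0.952. Thus *SLC1A5* was closer to *GDF15* by Pearson r than any member was.

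The other genes of the pathway were read from lists chosen by function. Of the 14 cytosolic tRNA synthetases and tRNA export genes, which charge and export tRNAs, 9 were called lower at day 14 and 13 were lower by the adjusted p alone, where 6.10% of all genes were. Their median log2 fold change was -1.19. *CARS1* for cysteine (-1.93, SE 0.113, edgeR adjusted p = 2.45e-10), *SARS1* for serine (-1.74) and *GARS1* for glycine (-1.65) fell most, *TARS1* for threonine was at -0.83 (SE 0.0920, adjusted p = 3.2e-06), and *VARS1* for valine rose by 0.37 (SE 0.107, adjusted p = 0.0274) by the adjusted p alone. Of the 11 enzymes of amino acid synthesis and one-carbon metabolism, 6 were called lower, with a median of -1.09. They were *ALDH1L2* (-2.37), *CTH* (-2.14), *CBS* (-1.56), *MTHFD2* (-1.43), *PSPH* (-1.10) and *SHMT2* (-1.09), which supply one-carbon units, cysteine, serine and glycine. *GPT2*, an alanine transaminase, was at -0.83 (SE 0.132, edgeR adjusted p = 0.000204), while *GOT1* (0.08) and *ALDH18A1* (0.04) were close to 0.

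Of 10 amino acid transporters a single gene was called lower at day 14, *SLC7A11*, the cystine transporter (-3.54, SE 0.160, edgeR adjusted p = 3.86e-12), and 7 were lower by the adjusted p alone. *SLC1A5* was at -0.65 (SE 0.101, adjusted p = 0.000172) and *SLC3A2*, the shared heavy chain, at -0.30 (SE 0.100, adjusted p = 0.0564). Of the 10 partner and downstream transcription factors, 5 were called lower: *NUPR1* (-2.61), *JDP2* (-1.58), *CEBPG* (-1.50), *ATF3* (-1.38) and *CEBPB* (-1.37). *ATF5*, another stress-induced factor, was at 0.30 (SE 0.147, edgeR adjusted p = 0.215). Of 12 tested genes in a list of other outputs 3 were called lower, *STC2* (-2.23), *CTH*, which also stands among the enzymes, and *EIF4EBP1* (-1.43), the translation repressor 4E-BP1. *BBC3*, which encodes the cell death protein PUMA, was at -0.66 (SE 0.147, edgeR adjusted p = 0.00451).

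Genes for the eIF2 kinases and for eIF2 and its regulators gave no call, and the phosphorylation of eIF2 was not measured. None of the 15 genes for kinases, eIF2 and its exchange factor and phosphatase was called at day 14 by edgeR. Of all genes 1.04% were called lower and 0.614% higher. At an unadjusted p under 0.05 there were 7 of the 15, against 24.6% of all genes. The median log2 fold change of the 15 was -0.01, as it was over all genes. By the adjusted p alone, *EIF2AK3*, which encodes PERK (0.53, SE 0.155, adjusted p = 0.0277), and *DNAJC3* (0.42, SE 0.115, adjusted p = 0.0206) were higher and *PPP1R15A*, the stress-induced phosphatase subunit GADD34 (-0.74, SE 0.11, adjusted p = 0.000104), was lower. *EIF2B4* was at -0.13 (SE 0.115, edgeR adjusted p = 0.577).

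Genes of the other arms of the endoplasmic reticulum stress response, which run through XBP1 and ATF6, leaned to higher values in FAKi at day 14. Of 14, *SDF2L1* was called higher at day 14 (1.24, SE 0.177, edgeR adjusted p = 6.95e-05), 8 were higher by the adjusted p alone, where 6.35% of all genes were, and a single gene, *HERPUD1*, was lower (-0.64, SE 0.104, adjusted p = 0.000267). *HSPA5*, the chaperone BiP, was at 0.58 (SE 0.093, edgeR adjusted p = 0.000252), *HYOU1* at 0.55 (SE 0.0960, adjusted p = 0.000571) and *XBP1* itself at -0.28 (SE 0.113, adjusted p = 0.113). The median of this list was 0.43. At day 21 its median was -0.32, against 0.01 over all genes, with 1 of 14 genes above 0. In 5 of the 14 every FAKi library was below every DMSO library, as in 17.1% of all genes.

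Both *GDF15* and *SESN2* are also known as p53 target genes. Of 12 other p53 target genes none was called at day 14 by edgeR, where 1.04% of all genes were called lower. At an unadjusted p under 0.05 there were 6 of the 12, against 24.6% of all genes. By the adjusted p alone 6 were lower, as were 6.10% of all genes. The median of the 12 was -0.35, against -0.01 over all genes. *CDKN1A*, the cell cycle inhibitor p21, was at -0.49 (SE 0.100, edgeR adjusted p = 0.00227), *PLK2* at -0.87 (SE 0.223, adjusted p = 0.0123) and *ZMAT3* at -0.48 (SE 0.105, adjusted p = 0.00378). Among 8 tested hypoxia genes *VEGFA*, which is also an ATF4 target, was called lower (-1.65, SE 0.105, edgeR adjusted p = 9.4e-10), while *ANKRD37* (-0.32), *BNIP3* (-0.26) and *P4HA1* (0.06) were not. Of the GDF15 receptor genes, *RET* was at 0.424 to 3.59 CPM over the libraries with a day 14 log2 fold change of 0.73 (SE 0.494, edgeR adjusted p = 0.410), and *GFRAL* was not among the genes tested.

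**Figure D3:**
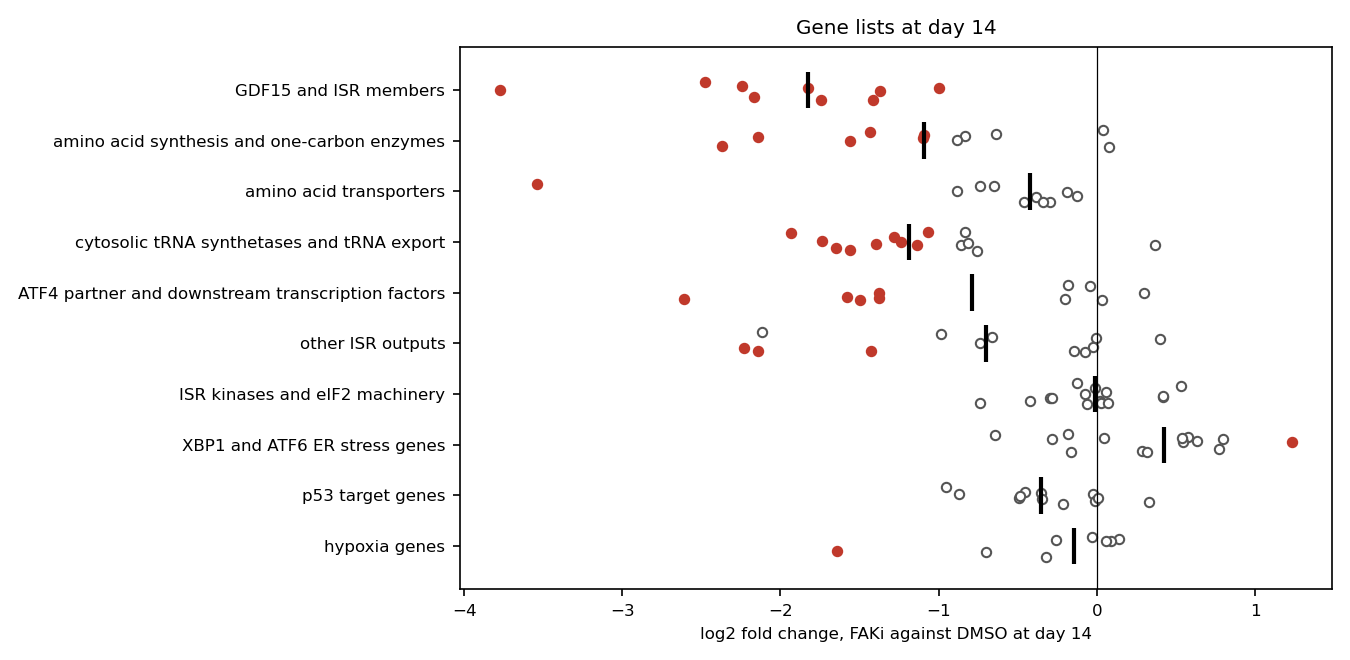
Log2 fold change of FAKi against DMSO at day 14 for the members and 9 gene lists (rows). Each point is a gene, filled red where called by edgeR, and the vertical bars are list medians. The members have a median of -1.83 and the tRNA synthetases -1.19, the kinases and eIF2 machinery stay at -0.01, and the XBP1 and ATF6 genes are at 0.43.

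For the synthetases, enzymes, transporters and partner transcription factors the medians of the other days lay closer to 0. At day 3 these 4 medians were 0.00, 0.04, 0.11 and 0.09, and edgeR called no gene of these 4 lists, with 1, 3, 4 and 1 genes at an unadjusted p under 0.05, as were 23.8% of all genes. With all 6 libraries of day 7 the medians were -0.45, -0.34, -0.235 and -0.24, and edgeR called none, with 0, 0, 0 and 1 genes at an unadjusted p under 0.05, against 8.77% of all genes. Without FAKi day 7 replicate 1 the day 7 medians were -0.07, -0.05, 0.03 and -0.14, and edgeR called none, with 1, 0, 2 and 1 genes at an unadjusted p under 0.05, against 15.7% of all genes. At day 21 the medians were -0.20, -0.27, -0.17 and -0.12, and edgeR again called none, with 4, 4, 4 and 3 genes at an unadjusted p under 0.05, against 32.6% of all genes. By the adjusted p alone 3, 3, 2 and 0 genes were then lower, as were 6.32% of all genes. The p53 targets had a median of -0.41 and the hypoxia genes of -0.29 at day 21, against -0.35 and -0.14 at day 14. The amino acid transporter *SLC1A5* was lower by the adjusted p alone at day 21, at -0.73 (edgeR adjusted p = 0.0149). *PLK2* was the p53 target called at day 21 (-1.08, edgeR adjusted p = 0.0135) and in the day 7 comparison without FAKi replicate 1 (-1.61, adjusted p = 0.000327), while with all 6 libraries it was at -1.19 (SE 0.294, adjusted p = 0.287).

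Set against the element shown above, 20 members and pathway genes with TGATGNAA in the promoter window were tested at day 14, and 9 of them were called lower, with a median log2 fold change of -0.88. Of 45 without it 16 were called lower, with a median of -0.42. Over all tested genes with a RefSeq promoter, 20 of 350 with the element (5.71%) and 114 of 12047 without it (0.946%) were called lower. These counts include the members and pathway genes, and a match is not a binding site. *GDF15*, *ATF4*, *PSAT1* and *DDIT4* were called lower without a match in the window.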

How the data were processed

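RNA of 92.1 cells had been prepared into stranded mRNA libraries. Per the study's methods and the submitters' processing notes, the authors trimmed reads with Trim Galore, checked them with FastQC 0.11.8, aligned them to hg38 with STAR 2.5.3a and counted them with HOMER's analyzeRepeats.pl. The deposited values are raw exon counts of 1 transcript per gene on the GENCODE annotation named in the file header, without normalization. The strand setting and the handling of multiply mapped reads are not given in the sources used here.

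All else was computed from these counts. Each value column matched a sample's description. For DMSO day 21 replicate 3 the column name has an extra digit in its day, and the day was taken from the sample's title. Groups followed the labels, and no library was removed unless stated. Genes with fewer than 20 counts in the fitted libraries were dropped, and edgeR 4.0.16 (R 4.3.3; TMM, quasi-likelihood F test, Benjamini-Hochberg adjustment over all genes tested) was fitted to the 6 libraries of each day, or to the 24 libraries of days 3 to 21 for the mean effect and its difference between days. The study's methods name DESeq2, which was run as an alternative (1.42.0). Called genes met the study's own thresholds of 0.05 and 1. Fits scale by their own libraries, while levels and correlations use all 27 libraries, and correlations use log2 CPM with a prior count of 2. With 3 libraries a group, an exact permutation test of a single gene cannot go below p = 0.1, so none was used. The pipeline was tested on simulated data.

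The members, the gene lists and the motif were chosen with earlier results of these data known. Named genes were the members, the 3 genes of smallest p in the mean effect from each list, *PTK2*, *GNAQ* and the 5 genes most like *GDF15* and *ASNS*. The other pathway genes named were chosen after their values were seen.

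Whether replicate numbers pair the libraries was checked by correlating deviations from group means across genes. At day 21 r was 0.443, 0.128 and 0.658, so a blocked fit is given for that day. At the other days r lay between -0.144 and 0.107. As alternatives, scaling was by RLE or upper quartile, genes were filtered by filterByExpr or not at all, a replicate block, DESeq2 or the adjusted p alone was used, all 27 libraries were fitted together, and single libraries were left out. Leaving out day 14 was added after seeing the data. Sequences came from RefSeq (GRCh38.p14), and exon overlaps from GENCODE 44 on hg38.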

Additional observations from a re-analysis of the deposited data

Results flagged for a closer look

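The FAKi effect differed between the 4 days for 5 members by edgeR's quasi-likelihood test of the interaction, with Benjamini-Hochberg adjusted p of 0.00941 for *ASNS*, 0.0123 for *PSAT1*, 0.0219 for *DDIT4*, 0.0260 for *CHAC1* and 0.0290 for *ATF4*. Day by day from day 3 to day 21, *ASNS* had log2 fold changes of -0.42, -0.55, -3.78 and -1.11, and *ATF4* of -0.12, -0.52, -1.74 and -0.47. The day 7 values include the library labelled FAKi replicate 1, and without it they were 0.01 for *ASNS* and -0.10 for *ATF4*. With single libraries left out in turn, *ATF4* did not pass in 9 settings (edgeR adjusted p of 0.0502 to 0.0749), *CHAC1* in 4 (0.0519 to 0.0748) and *DDIT4* in 3 (0.051 to 0.0788). These were the settings without a day 14 library and, for *ATF4*, also, at day 3, those without replicate 2 of DMSO and without replicate 2 or 3 of FAKi.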

How the results depend on the processing

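Of 1558 values of single members under alternatives, 1478 kept their direction and their side of the thresholds, 31 passed newly, 34 no longer passed and 15 changed sign, where the cause was not tested. Without a count filter 1 member was called at day 3 and 1 at day 7 (0 before). In that setting 3.3% and 0.65% of all genes were called. The effect then differed between days for 9 members (5 before), where 11.4% of all genes passed (10.3% before). In a single fit of all 27 libraries 1 member was called at day 7 and 1 at day 21 (2 before). Of all genes, 0.245% and 6.94% were called there. By the adjusted p alone 7 were lower in the mean effect (2 before), as were 8.70% of all genes (1.01% before). With single libraries left out, 0 to 1 members were called at day 7 and 1 to 3 at day 21. The mean effect was called for 2 to 4 (4 without FAKi day 7 replicate 2) and the difference between days for 2 to 8. In turn, 0% to 1.14%, 0.229% to 18.7%, 1.36% to 3.05% and 5.69% to 21.8% of all genes were called. For the difference between days, 8 members passed without FAKi day 7 replicate 1, where 16.1% of all genes passed. There were 2 without FAKi day 14 replicate 1 or 2 (6.65% and 6.39% of all genes). Without DMSO day 14 replicate 1, DMSO day 14 replicate 3 or FAKi day 14 replicate 3 there were 3 (9.67%, 8.11% and 8.44%). Without day 14 there were 0, where 1.74% of all genes passed, with fewer days compared and FAKi day 7 replicate 1 kept.

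The sign changes touched effects that were not called. With single libraries left out, the log2 fold change at day 3 ran from -0.42 to 0.0842 for *DDIT3* and from -0.21 to 0.00924 for *PSAT1*. At day 7 it ran from -0.75 to 0.0120 for *DDIT3*, -0.940 to 0.00553 for *ASNS*, -0.843 to 0.29 for *CHAC1*, -0.63 to 0.19 for *PSAT1* and -0.71 to 0.28 for *SESN2*, each upper end without FAKi replicate 1. At day 21 it ran from -0.23 to 0.16 for *DDIT3* and from -0.10 to 0.12 for *PSAT1*. With upper quartile scaling the day 21 values were 0.0330 for *DDIT3* and 0.0162 for *PSAT1*, and the mean effect of *SESN2* without day 14 was 0.0255. With the replicate block the day 21 value of *DDIT3* was 0.0257, and the block, which pairs libraries only at day 21, gave 3 members called there against 2 without it. At day 14 the block gave 8 members against 9, where 1.77% of all genes were called. There *SESN2* was at -0.999, just outside the fold threshold. *GDF15* had as few as 8 counts in a library at day 14 and *PHGDH* at most 19 in any library, which limits both.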
